A study of Mus musculus with 12 samples.

Results

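The 35 genes described here are expressed in or act on the endothelium, the cell layer that lines blood vessels, and were measured in mouse skeletal muscle. Each gene was read from the probe sets (groups of array probes for 1 transcript) that carried its symbol and no other. Where there were several, the brightest on average over the 12 arrays was used. All 35 were measured, among 18193 genes in the series. By role, 12 encode surface, junction and secreted proteins that mark endothelial cells, 6 are VEGF ligands and receptors, 4 are angiopoietins and TIE receptors, 2 are apelin and its receptor, 4 are transcription factors, 2 are inducible genes and 5 act in vascular tone, haemostasis or leukocyte adhesion.

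The mice were of the C57Bl/6 strain, and all ate chow, with 13% of calories from fat, up to the age of 6 weeks. One group was then switched for 5 days to a high-fat diet (HFD), in which fat supplied 46% of calories, and another group ate it for 42 days. The control group stayed on chow. Each group had 4 Affymetrix arrays hybridised with biotin-labelled cRNA from total muscle RNA. The same chow arrays were the control for both times. Both HFD groups began the diet at 6 weeks, so the mice at 42 days were older than those at 5 days. Age and time on the diet cannot be told apart between these groups. The chow group cannot match both HFD groups in age, so age may be mixed with diet in the comparisons with chow too. Sex, the muscle taken, batches and the age at which chow mice were sampled are not given in the labels used here. Nor do the labels say that replicates came from different animals, and the p-values therefore cover only the spread between these samples, which may be technical.

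Muscle fibres lie beside dense capillaries, which deliver oxygen, glucose and insulin and across which fatty acids pass. VEGF-A, a growth factor that muscle fibres themselves make, acts on the endothelial receptor Kdr, while Flt1 also binds it and limits its action. Angiopoietins act on the receptor Tek, for which Angpt1 is a stabilising ligand and Angpt2 mostly an antagonist. Genes such as Pecam1, Cdh5 and Cldn5 encode the contacts between endothelial cells and are used as markers of how much endothelium a tissue holds. In bulk muscle RNA, fewer endothelial cells and less RNA per endothelial cell cannot be told apart, and neither can more of each.

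The deposited values were log2 signals between 3.67 and 15.46, and correlations between any 2 arrays lay between 0.991 and 0.998. The 10 myofibre markers, which check the labelled tissue, averaged 15.10 ± 0.011 at 5 days, 15.12 ± 0.013 at 42 days and 15.11 ± 0.014 on chow (log2 signal, SD, n = 4 arrays). They lie near the top of the scale, and 0 of 10 passed the test in any comparison. The 3-prime minus 5-prime difference of the Gapdh and Actb control probes, a sign of RNA or labelling quality, was 0.0795 to 0.1835 on the 5-day arrays, 0.0315 to 0.074 on the 42-day arrays and 0.1055 to 0.166 on the chow arrays (log2). The 42-day arrays did not overlap the others in it, so this measure and 42 days of diet cannot be told apart. Of the 35 genes, 33 had a mean signal above the lower quartile of every array, and the mean of Icam1 lay below it on every array. The probe sets of Egfl7 and Sox17 have names that mark possible cross-hybridisation.

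**Figure D1:**
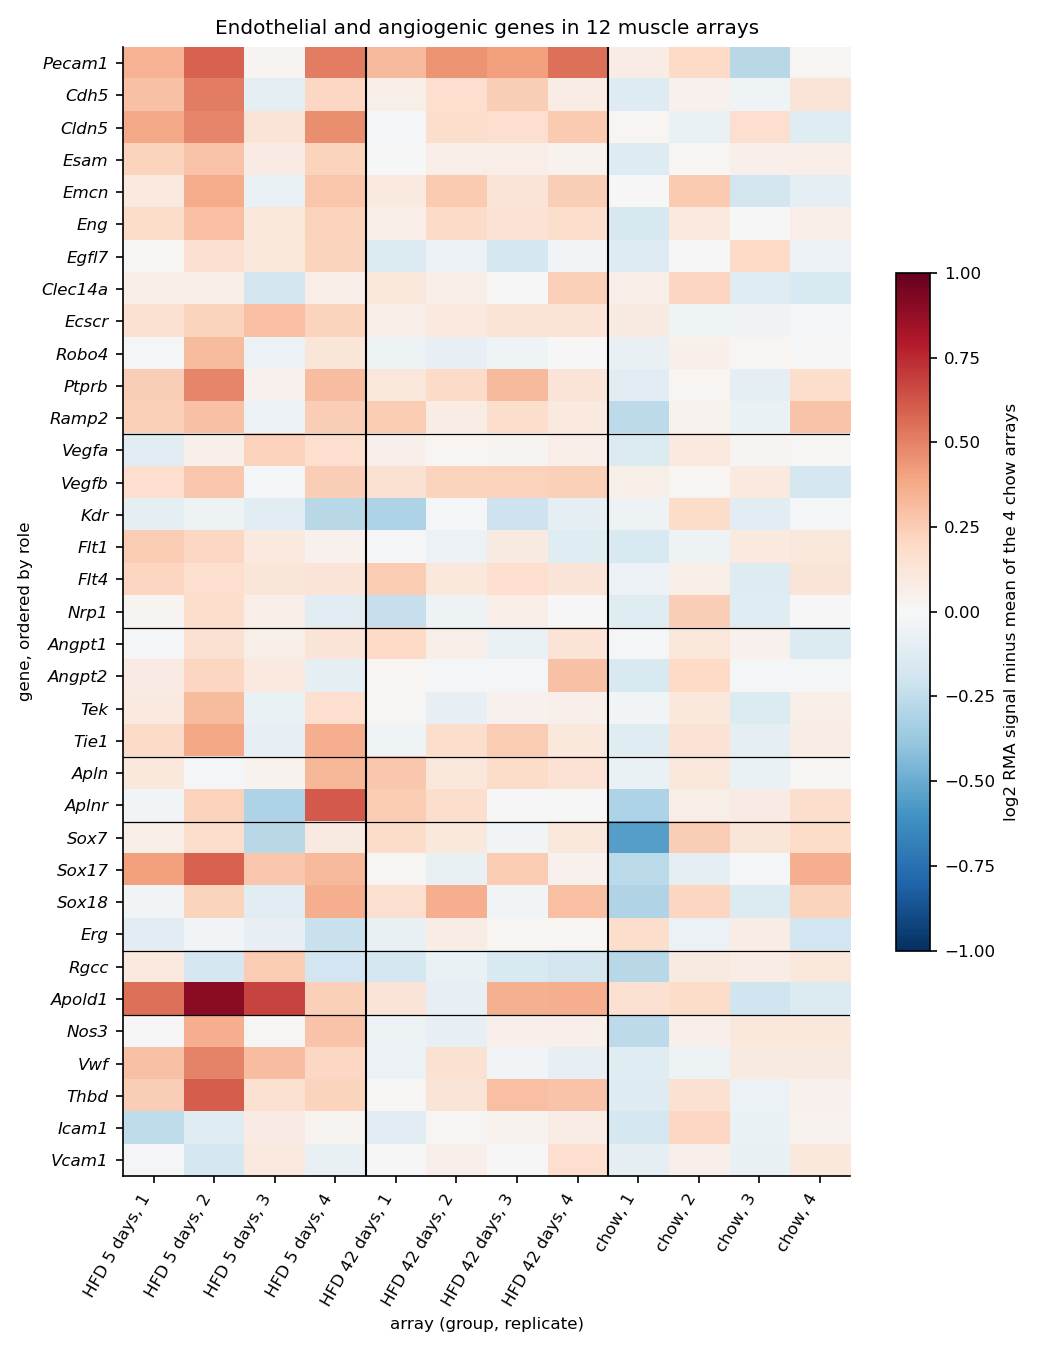
Log2 signal of each of the 35 genes on each of the 12 arrays, minus the gene's mean on the 4 chow arrays. Rows are genes in order of role, divided by lines; columns are arrays, by group and replicate; red is higher and blue is lower than the chow mean. Replicate 2 at 5 days is the highest of its group for 23 of 35 genes and replicate 1 of chow the lowest of its group for 23 of 35.

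The first comparison asked which of these genes differed after 5 days of HFD. The endothelial genes that passed the test were all higher than on chow: Apold1, Cldn5, Vwf and Ecscr rose 1.51-fold, 1.29-fold, 1.25-fold and 1.17-fold. Those are 4 of 35, or 11.4%, against 1.6% of all genes called higher in the same comparison. None of the 35 was called lower with limma at an adjusted p under 0.05, against 2.2% of all genes. At an unadjusted p under 0.05, 0 were lower, against 14.1% of all genes. The other 31 did not pass. Of the 35, 30 lay above 0 (all genes, 47%) and 15, or 42.9%, were higher at an unadjusted p under 0.05 (all genes, 10.6%). Their changes ran between -0.13 and 0.59 with a median of 0.15 on the log2 scale, beside a median of -0.01 over all genes.

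Cldn5 encodes claudin-5, the main tight junction protein between endothelial cells. Its log2 signal was 9.27, 9.38, 9.03 and 9.36 on the 4 arrays at 5 days, 8.88, 9.07, 9.06 and 9.16 at 42 days, and 8.91, 8.83, 9.06 and 8.77 on chow. Of the 5-day arrays 3 lay above every chow array, while replicate 3 lay just below the highest chow array, so the groups overlapped. The log2 fold change at 5 days was 0.37 ± 0.086 (± SE, adjusted p = 0.0376, limma).

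Ecscr, an endothelial surface receptor of cell movement, had 7.95, 8.01, 8.09 and 8.01 at 5 days, 7.86, 7.89, 7.93 and 7.93 at 42 days, and 7.89, 7.75, 7.76 and 7.78 on chow. All 5-day arrays lay above all chow arrays and above all 42-day arrays. Its signal is low and its change small, 0.22 ± 0.051 on the log2 scale (adjusted p = 0.0361, limma).

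Vwf encodes von Willebrand factor, which endothelial cells and platelets store and release to bind platelets to an injured wall. It had 8.97, 9.18, 8.98 and 8.88 at 5 days, 8.62, 8.83, 8.65 and 8.60 at 42 days, and 8.56, 8.62, 8.76 and 8.76 on chow. The 5-day arrays lay above all 8 others, and the 42-day and chow arrays overlapped throughout. The 5-day change was 0.33 ± 0.074 (adjusted p = 0.0361, limma). Platelet and megakaryocyte markers, the other usual source of Vwf transcript, had a mean per array of 8.155 to 8.179 at 5 days, 8.228 to 8.371 at 42 days and 8.201 to 8.274 on chow (log2 signal, 7 of 8 listed genes measured). That mean was lowest in the group in which Vwf was highest, and 0 of the 7 markers passed the test against chow at 5 days. The part of platelets in the Vwf value was not tested.

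Apold1 encodes an endothelial protein that is induced early after stimulation of the cells. It showed the largest change of the 35, with 9.30, 9.65, 9.43 and 8.99 at 5 days, 8.88, 8.67, 9.10 and 9.12 at 42 days, and 8.90, 8.94, 8.55 and 8.62 on chow. The 5-day and chow arrays did not overlap, and replicate 4 at 5 days lay only just above the highest chow array. The change was 0.59 ± 0.13 (adjusted p = 0.0354, limma). Immediate early genes, transcripts such as Fos that appear soon after a stimulus, moved in the same comparison. Of 20 measured, 8 (40%) were called higher and 0 lower, against 1.6% and 2.2% of all genes. The mean of the 20 per array was 9.60 to 10.05 at 5 days, 9.55 to 9.67 at 42 days and 9.45 to 9.57 on chow. Without replicate 2 at 5 days, 0 of the 20 were called, and 6 of all 18193 genes were. Replicate 4 at 5 days, the lowest of its group for Apold1, was also the lowest in that mean. The part of this list in the Apold1 result was not tested.

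Of the 4 genes that rose at 5 days, promoter windows from the RefSeq table were read for Cldn5 and Apold1. The 250 bases before each start are shown. Both are on the plus strand of build GRCm38.p6, Cldn5 at chr16:18776597-18776846 and Apold1 at chr6:134981751-134982000. Capitals mark the outline of the serum response motif of immediate early genes, CC and GG with any 6 bases between them, and ACGTG, the core of the hypoxia response motif. The serum response motif itself has only A or T at those 6 places, and every marked outline holds C or G there.
Cldn5: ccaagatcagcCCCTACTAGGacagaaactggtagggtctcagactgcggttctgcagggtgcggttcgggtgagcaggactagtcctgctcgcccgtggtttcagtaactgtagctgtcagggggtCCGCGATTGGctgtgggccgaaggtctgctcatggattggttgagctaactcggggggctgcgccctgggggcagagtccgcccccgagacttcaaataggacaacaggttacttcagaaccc
Apold1: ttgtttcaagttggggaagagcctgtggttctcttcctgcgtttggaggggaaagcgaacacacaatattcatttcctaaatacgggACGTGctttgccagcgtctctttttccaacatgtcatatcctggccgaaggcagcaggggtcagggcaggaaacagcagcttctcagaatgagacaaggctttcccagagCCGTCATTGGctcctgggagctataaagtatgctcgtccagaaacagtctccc

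Cldn5 held 2 matches to the serum response outline and 0 to ACGTG, and Apold1 held 1 of each. These letters are common. Of all promoter windows searched, 67.1% held that outline and 16.6% held ACGTG on either strand, against 83.3% and 12.5% of the 24 windows of members. In all, windows of 19 of the 35 genes were searched. A gene without a searched window, such as Ecscr or Vwf, may still have one in the RefSeq table. The ETS core CCGGAA was in 8.33% of the members' windows (all windows, 12%), the SOX cores ACAAAG and AACAAT in 16.7% and 12.5% (16.5% and 9.42%), the E-box CAGCTG in 8.33% (13%) and the KLF motif CACCC in 70.8% (52%). Both strands were searched, and the matches are a description of the letters only.

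**Figure D2:**
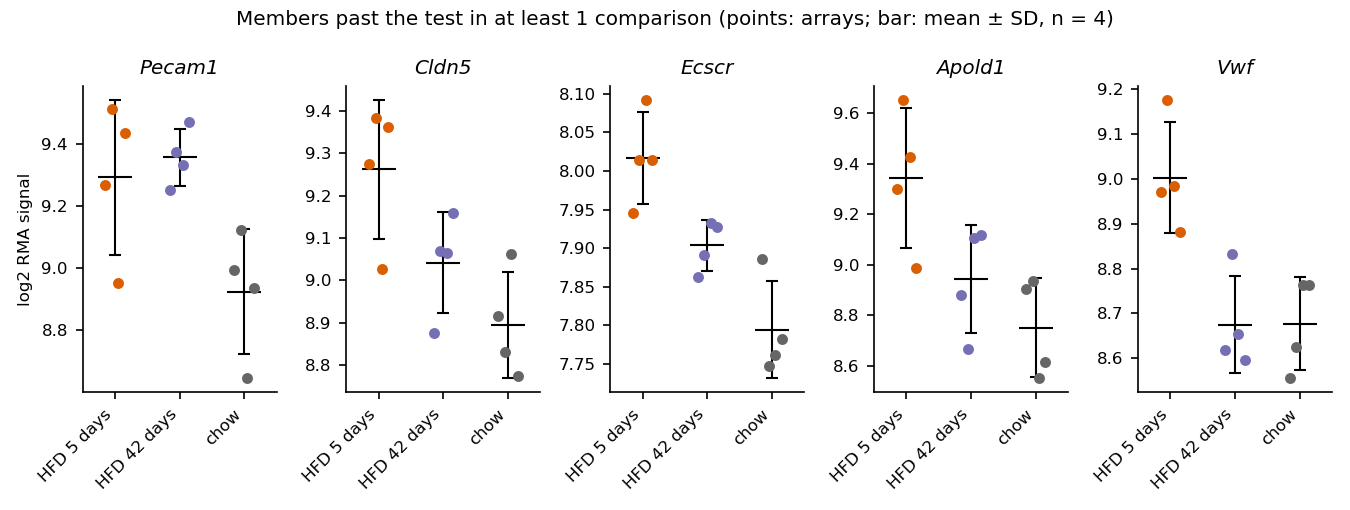
Log2 signal of the 5 genes past the test in at least 1 comparison. Points are arrays, and the bar and whiskers are the mean and SD of 4 arrays. The y axis of each panel is the log2 RMA signal with its own range, and the x axis gives the groups; at 5 days Vwf and Ecscr lie above all arrays of the other groups, while Pecam1 is higher than on chow on all 42-day arrays.

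Among the other identity genes, all of those 12 genes lay above 0 at 5 days, with a median of 0.21 on the log2 scale. Besides Cldn5 and Ecscr, 10 did not pass. The nearest to the threshold were Esam, an adhesion molecule of endothelial junctions (0.20 ± 0.058, adjusted p = 0.0609), Eng, a co-receptor for the TGF-beta family (0.21 ± 0.063, adjusted p = 0.0703), Pecam1 (0.37 ± 0.11, adjusted p = 0.0745) and Ptprb, the phosphatase that restrains Tek (0.27 ± 0.088, adjusted p = 0.0839, all limma). In Esam and Eng the 5-day arrays lay above all chow arrays, as in Ecscr, Apold1 and Vwf, which makes 5 of 35 genes, or 14.3%, against 5.29% of all genes; the reverse held for 0 of the 35 and 6.47% of all genes. Cdh5, the VE-cadherin of the junctions, had 0.23 (95% interval 0.01 to 0.44). Ramp2, the partner of the adrenomedullin receptor, had 0.18, Emcn (endomucin) 0.17 and Egfl7, a secreted guide of vessel growth, 0.13. Robo4, a guidance receptor, had 0.09 and Clec14a, a lectin, 0.00.

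The VEGF genes had a median of 0.12 at 5 days, and 0 of 6 passed. Vegfa averaged 10.72 ± 0.15 at 5 days, 10.68 ± 0.022 at 42 days and 10.63 ± 0.10 on chow (log2 signal, SD, n = 4 arrays). Its change was 0.08, with a 95% interval of -0.07 to 0.24. Kdr, its signalling receptor, was the lowest value of the 35 at -0.13 (-0.30 to 0.04). Flt1 had 0.15, Flt4, the receptor of lymphatic growth, 0.16, Vegfb, a ligand of Flt1 that is abundant in muscle, 0.17 and the co-receptor Nrp1 0.04. These intervals leave room for changes of about the size seen in Ecscr in some of the genes, so the data do not show that the VEGF genes were unaltered.

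In the angiopoietin and TIE system 0 of 4 passed at 5 days. Tie1, an orphan receptor that modulates Tek, had 0.22, Tek 0.13, Angpt1 0.08 and Angpt2 0.08. Apelin (Apln), a peptide that acts on vessels, had 0.11 and its receptor Aplnr 0.13. Of the transcription factors, Sox17, which helps set arterial identity, had 0.40 ± 0.11 (adjusted p = 0.0588, limma), while Sox18 had 0.11, Sox7 0.01 and Erg, an ETS factor of the endothelium, -0.11. The cell-cycle regulator Rgcc, the brightest of the 35, had -0.00. In the last group, Thbd, the anticoagulant thrombomodulin, had 0.31 ± 0.097 (adjusted p = 0.08, limma) and Nos3, the endothelial nitric oxide synthase, 0.17. The leukocyte adhesion molecules Icam1 and Vcam1, which inflamed endothelium displays, had -0.07 and -0.04.

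The count of 4 depends on single arrays. It was 0 without replicate 2 at 5 days, 1 without replicate 1, 2 or 3 of chow, 2 without replicate 4 at 5 days, replicate 3 at 42 days or replicate 4 of chow, and 6 without replicate 3 at 5 days, while centring each array on its median gave 11 and quantile normalization 1. The calls over all 18193 genes moved too, from 291 higher. Higher calls numbered 2 without replicate 2 at 5 days, 64 without replicate 1 of chow and 255 without replicate 3 at 5 days. Quantile normalization gave 100 and centring 1141. Centring also moved the calls over all genes to 84.3% higher, against 42.1% without it. No setting called any of the 35 lower. Over all alternative settings, Cldn5 stayed past the test in 12 of 24, Ecscr in 13 of 23, Apold1 in 14 of 24 and Vwf in 16 of 24.

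The second comparison asked which genes differed after 42 days of HFD. Pecam1 rose 1.35-fold and was the only one of the 35 to pass, or 2.86%, against 2.12% of all genes called higher and 3.44% called lower. None was lower with limma at an adjusted p, and 0 were lower at an unadjusted p under 0.05, against 13.4% of all genes. Of the 35, 27 lay above 0 (all genes, 45.1%), 7, or 20%, were higher at an unadjusted p under 0.05 (all genes, 8.43%), and the median change was 0.09 on the log2 scale (all genes, -0.01) with a range of -0.15 to 0.43.

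Pecam1 encodes CD31, an adhesion molecule of endothelial junctions that platelets and leukocytes also carry. Its log2 signal was 9.25, 9.37, 9.33 and 9.47 on the 42-day arrays, against 8.99, 9.12, 8.64 and 8.94 on the chow arrays. The groups did not overlap. The change was 0.43 ± 0.11 (adjusted p = 0.0393, limma). At 5 days it had 9.27, 9.51, 8.95 and 9.44, of which replicate 3 lay within the range on chow and the other 3 above it. Platelet markers had 0 of 7 past the test at 42 days. Of 8 macrophage markers 1 was higher, or 12.5%, against 2.12% of all genes. Macrophage means per array were 9.62 to 9.91 at 42 days and 9.59 to 9.84 on chow. The part of these cells in the Pecam1 value was not tested. With the 3-prime to 5-prime difference of each array as a covariate, Pecam1 had 0.15 (adjusted p = 0.736, limma), in a fit that called 0 of 18193 genes at 42 days. The call was also lost without any 1 of the 42-day arrays, without replicate 1 at 5 days, and without replicate 3 or 4 of chow.

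**Figure D3:**
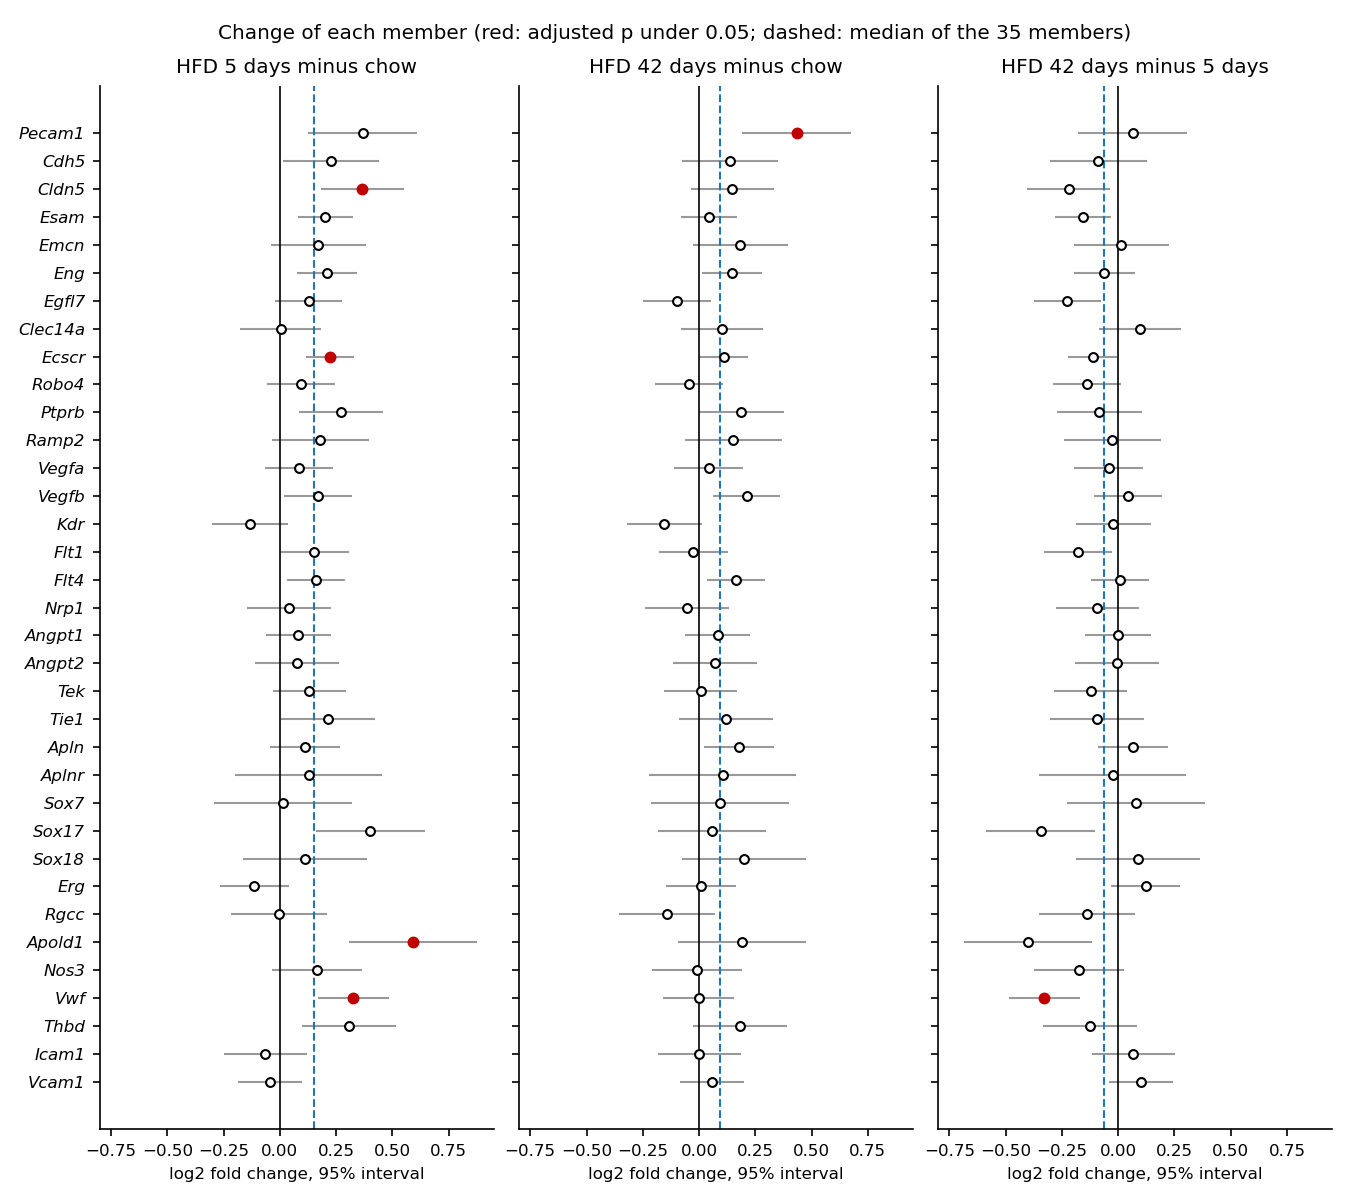
Log2 fold change of each gene in the 3 comparisons, with its 95% interval. Filled red points passed the test and open points did not; the dashed line is the median of the 35 genes, 0.15 at 5 days, 0.09 at 42 days and -0.06 between the times. Most points lie right of 0 in the first 2 panels, and most lie left of 0 in the third.

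Of the other identity genes at 42 days, Eng had 0.15, Ptprb 0.19, Emcn 0.18, Ramp2 0.15, Cldn5 0.15, Cdh5 0.14, Ecscr 0.11, Clec14a 0.10 and Esam 0.04 (log2), and Egfl7 and Robo4 had -0.10 and -0.05. Among the VEGF genes, Vegfb came closest, with 0.21 ± 0.07 (adjusted p = 0.0941, limma). In Vegfb as in Pecam1 the 42-day arrays lay above all chow arrays, and those 2 genes are 5.71% of the 35, against 5.19% of all genes; 0 lay below all chow arrays, against 8.66% of all genes. Flt4 had 0.17, Vegfa 0.04 (-0.11 to 0.20), Flt1 -0.03, Nrp1 -0.05 and Kdr -0.15, the lowest of the 35.

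The remaining groups had small values at 42 days. Angpt1 had 0.08, Angpt2 0.07, Tek 0.01 and Tie1 0.12 on the log2 scale. Apln had 0.18 and Aplnr 0.10. Sox18 had 0.20, Sox7 0.09, Sox17 0.06 and Erg 0.01. Apold1 had 0.19, Rgcc -0.14, Thbd 0.18, Nos3 -0.01, Vwf -0.00, Icam1 0.00 and Vcam1 0.06. None of these passed the test.

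The third comparison set the HFD groups against each other. Vwf fell 1.26-fold at 42 days relative to 5 days, -0.33 ± 0.074 on the log2 scale (adjusted p = 0.0236, limma), with no overlap between the arrays given above. It was 1 of 35, or 2.86%, called lower, against 5.77% of all genes, and 0 were called higher, against 2.75%. At an unadjusted p under 0.05, 0 were higher, against 13.7% of all genes. The call was lost without replicate 2 or 3 at 5 days or replicate 1 or 4 at 42 days, and with the 3-prime to 5-prime covariate, where Vwf had -0.26 (adjusted p = 0.192, limma) in a fit that called 0 of 18193 genes between the times. Besides Vwf, the arrays of the groups did not overlap in Esam, Egfl7, Ecscr and Sox17, all lower at 42 days. Those 5 are 14.3%, against 13.3% of all genes, and 0 were higher without overlap, against 7.17%. The 8 lower at an unadjusted p under 0.05 are 22.9%, against 17.2%. Such shares are near the background.

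The values nearest to Vwf were those of Egfl7 (-0.23, adjusted p = 0.0569), Sox17 (-0.34 ± 0.11, adjusted p = 0.0663) and Apold1 (-0.40 ± 0.13, adjusted p = 0.069, all limma). Sox17 averaged 9.47 ± 0.14 at 5 days, 9.13 ± 0.14 at 42 days and 9.07 ± 0.27 on chow (log2 signal, SD, n = 4 arrays). Of the 35 genes, 11 lay above 0 (all genes, 52%) and the median was -0.06 (all genes, 0.01). The difference between the times was not past the test for Cldn5 (-0.22, adjusted p = 0.105, limma) or Ecscr (-0.11, adjusted p = 0.145, limma), so their call at 5 days alone is not a difference between the times. A moderated F-test over the 3 groups called 6 of the 35, or 17.1%, against 12.5% of all genes: Pecam1, Cldn5, Ecscr, Sox17 (adjusted p = 0.0492), Apold1 and Vwf.

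Single arrays were high or low for many of the 35 genes at once. The mean of the 35 per array was 9.46, 9.59, 9.39 and 9.51 at 5 days, 9.38, 9.42, 9.43 and 9.45 at 42 days, and 9.23, 9.42, 9.31 and 9.38 on chow (log2 signal). The groups overlapped, because replicate 3 at 5 days lay below replicate 2 of chow. That 5-day array was the lowest of its group for 19 of the 35 genes, and replicate 2 of chow the highest of its group for 17. Replicate 2 at 5 days was the highest for 23, and replicate 1 of chow the lowest for 23. The changes of all genes at 5 days also depended on signal, with medians of -0.08 in bin 3 and 0.08 in bin 9 of 10 bins from the dimmest to the brightest. Set against the median of their own bin, 29 of the 35 genes were higher at 5 days, 29 at 42 days and 17 at 42 relative to 5 days, and the medians of the differences from the bins were 0.12, 0.11 and -0.00.

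A second measure of the same genes came from probe sets that were not used above. The 35 genes had 60 probe sets, 1 each for 18 genes and more for the other 17, which left 25 others. Of these 25, 18 had the sign of the used probe set at 5 days, 14 at 42 days and 13 between the times. Cldn5, Ecscr, Apold1, Vwf and Pecam1 each had a single probe set, so none of the calls has a second measure. For Sox17, the other probe set had 0.34 ± 0.098 at 5 days (adjusted p = 0.0623 over probe sets, limma), close to the used one, and 0.31 ± 0.098 at 42 days, where the used one had 0.06.

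At 42 days, 5 of the 25 other probe sets were past the test over probe sets, and all 5 were higher than on chow. In that fit, the used probe sets of 491 of all 18193 genes were called higher and 793 lower. The share over all unused probe sets was not counted. The 5 read Flt1, Ptprb, Angpt1, Cdh5 and Vegfa, in none of which the used, brighter probe set passed. For Flt1 the dimmer probe set had 8.34, 8.25, 8.62 and 8.503 at 42 days and 7.76, 7.86, 7.64 and 7.96 on chow, with a change of 0.62 ± 0.11 (adjusted p = 0.00211, limma), beside -0.03 for the used one. For Angpt1 it had 7.92, 7.76, 7.91 and 8.03 at 42 days and 7.46, 7.52, 7.497 and 7.48 on chow, a change of 0.42 ± 0.062 (adjusted p = 0.00109, limma). In both genes the groups did not overlap.

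The dimmer probe set of Vegfa had 9.86, 9.998, 9.98 and 10.12 at 42 days and 9.74, 9.65, 9.78 and 9.51 on chow, a change of 0.32 ± 0.076 (adjusted p = 0.0155, limma). Those of Cdh5 and Ptprb had 0.39 ± 0.092 (adjusted p = 0.014) and 0.47 ± 0.071 (adjusted p = 0.00115, limma). That probe set of Ptprb averaged 5.72, below the lower quartile of every array, as Icam1 did, so its size is uncertain, and the other unused probe set of Ptprb had -0.16. The arrays did not overlap in the dimmer probe sets of these 3 genes either. Over all genes, read by the used probe sets, 5.19% were higher at 42 days without overlap. The files used here do not say which part of a transcript a probe set reads. With the 3-prime to 5-prime difference of each array as a covariate, none of the 5 passed: Cdh5 had 0.06, Vegfa 0.07, Ptprb 0.29, Flt1 0.37 and Angpt1 0.40, with adjusted p between 0.171 (Angpt1) and 0.825 (Cdh5, limma). The fit over genes with this covariate called 0 of 18193 genes at 42 days, so the loss does not single out these 5. At 5 days only 1 other probe set passed, another of Flt1 with 0.27 ± 0.068 (adjusted p = 0.0418, limma). The fit over probe sets called the used probe sets of 251 genes higher and 332 lower at 5 days.

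Between the times, 5 other probe sets were past the test over probe sets, 4 of them higher at 42 than at 5 days. In that fit, the used probe sets of 417 of all 18193 genes were called higher and 934 lower. The 4 higher ones of the 35 genes were the same dimmer probe sets of Cdh5 (0.41 ± 0.092, adjusted p = 0.0236), Ptprb (0.42 ± 0.071, adjusted p = 0.014) and Angpt1 (0.31 ± 0.062, adjusted p = 0.0182), and one of Vcam1 (0.31 ± 0.079, adjusted p = 0.0336, all limma). The used probe sets of these 4 genes did not pass. The lower one was another probe set of Ptprb (-0.39 ± 0.11, adjusted p = 0.0466, limma). With the 3-prime to 5-prime covariate 0 of these 5 passed. The fit over genes with it called 0 of 18193 between the times, so this loss does not single them out.

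Opposite signs between probe sets at 5 days were seen in genes that did not pass. Erg had -0.11 by the used and 0.22 by the other probe set, Rgcc -0.00 and 0.19, Flt4 0.16 and -0.07, and Angpt2 0.08 and -0.04. Cdh5 had 0.23 and -0.01, and one unused probe set differed in sign for Nrp1 (0.04 and -0.16) and Vcam1 (-0.04 and 0.03). At 42 days Eng had 0.15 and -0.07, Clec14a 0.10 and -0.08, Rgcc -0.14 and 0.15, and Flt4 0.17 and -0.02. Vcam1 had 0.06 and -0.08, Sox7 0.09 and -0.01, and Egfl7 -0.10 by the used and 0.04 and 0.09 by other probe sets. A further probe set of Flt1 had 0.14, beside -0.03 for the used one.

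**Figure D4:**
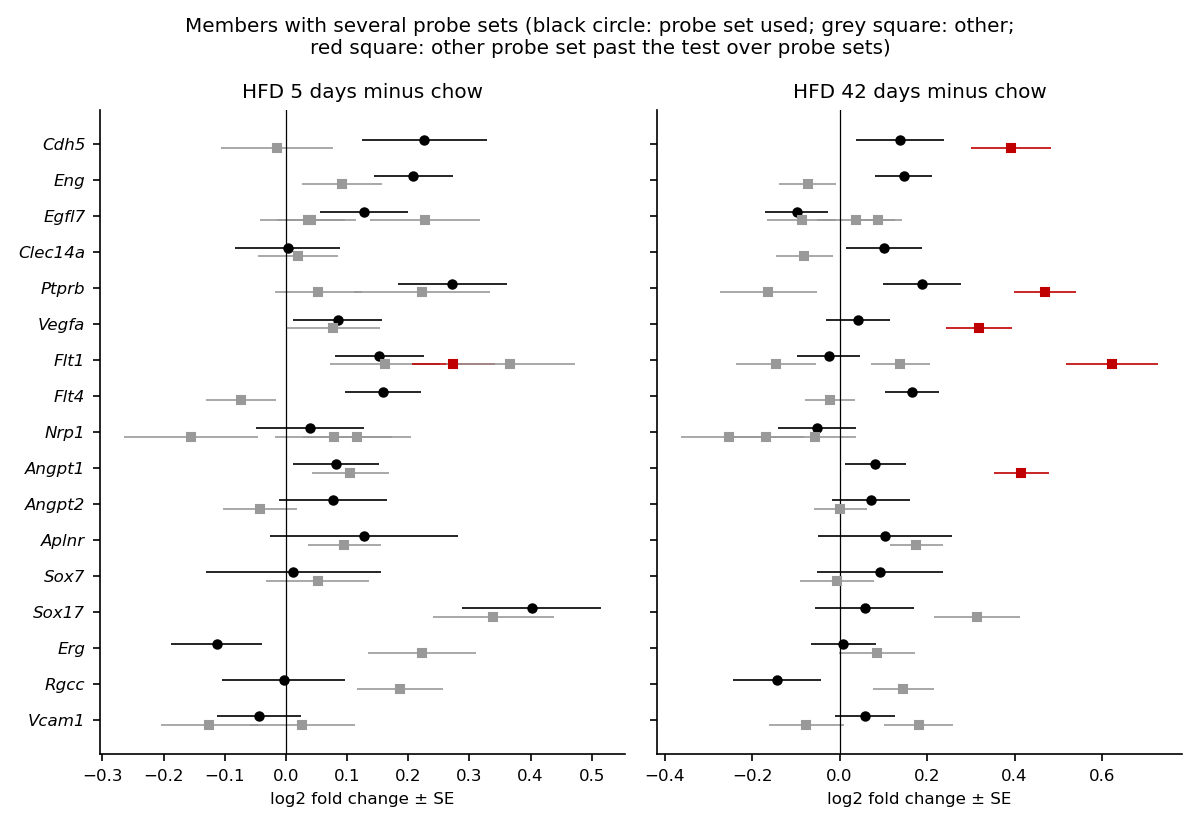
Log2 fold change (± SE) of every probe set of the 17 genes with more than 1, at 5 days (left) and 42 days (right) relative to chow. Black circles are the probe sets used, grey squares the others, and red squares the others past the test over probe sets, 1 at 5 days and 5 at 42 days.

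Other genes of the vessel wall and of angiogenesis were counted as a frame. Of 39 other endothelial markers measured, 1 was called higher at 5 days, Icam2 (0.32 ± 0.083, adjusted p = 0.0483), and 1 at 42 days, the sphingosine receptor S1pr1 (0.56 ± 0.13, adjusted p = 0.0259, both limma). Each is 2.56% of the 39, against 1.6% of all genes called higher at 5 days and 2.12% at 42 days. None was called lower at either time, against 2.2% and 3.44%. The median change of the 39 was 0.08 at 5 days and 0.05 at 42 days, below the 0.15 and 0.09 of the 35. Between the times, 2.75% of all genes were called higher and 5.77% lower. Between the times Myct1 was higher (0.23 ± 0.054, adjusted p = 0.026) and Mmrn2 lower (-0.24 ± 0.062, adjusted p = 0.0323, both limma) at 42 days.

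Of 49 other angiogenesis genes measured, 6 (12.2%) were called higher and 0 lower at 5 days, against 1.6% and 2.2% of all genes. At 42 days 4 (8.16%) were higher and 1 (2.04%) lower, against 2.12% and 3.44%. Relative to 5 days, 0 were higher and 4 (8.16%) lower at 42 days, against 2.75% and 5.77%. Only the 4 genes of this list with the smallest p are named here, and those 4 include inhibitors of vessel growth. Thbs1, a thrombospondin, rose at both times, by 0.46 ± 0.12 at 5 days (adjusted p = 0.0451) and by 0.82 ± 0.12 at 42 days (adjusted p = 0.00328, both limma). Its mean on chow was 6.87, below the lower quartile of every chow array (7.204 to 7.276), so the size of its change is uncertain. Thbs2 rose at 42 days (0.30 ± 0.062, adjusted p = 0.0167, limma). Adamts1, a protease that also restrains angiogenesis, rose at 5 days (0.61 ± 0.11, adjusted p = 0.0229) and fell at 42 relative to 5 days (-0.40 ± 0.11, adjusted p = 0.0424, both limma). Arnt, the partner of the hypoxia-inducible factors, fell at 42 days (-0.27 ± 0.061, adjusted p = 0.0246) and relative to 5 days (-0.28 ± 0.061, adjusted p = 0.0225, both limma), but the mean of its probe sets had 0.11 at 42 days. Without replicate 2 at 5 days, 0 of the 49 were called higher at 5 days, and 2 of all 18193 genes were. When each of the 12 arrays was left out in turn, Thbs1 at 42 days stayed past the test 12 times, Adamts1 at 5 days 11 times (not without replicate 2 at 5 days) and Thbs2 at 42 days 11 times (not without replicate 3 of chow), but Thbs1 at 5 days and Icam2 only 2 times each. Of the other calls named, S1pr1 and Myct1 stayed past it 8 times each, Mmrn2 6, Adamts1 between the times 5, and Arnt 7 times at 42 days and 8 between the times.

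Hypoxia-inducible genes, which low oxygen raises together with Vegfa, had 0 of 11 past the test at 5 days. At 42 days 1 was lower than on chow, Pfkfb3, a regulator of glycolysis (-0.69 ± 0.17, adjusted p = 0.0322, limma). Relative to 5 days, 2 were lower, the glucose transporter Slc2a1 (-0.39 ± 0.088, adjusted p = 0.0236) and the prolyl hydroxylase Egln3 (-0.37 ± 0.083, adjusted p = 0.0241, both limma). The 1 and the 2 are 9.09% and 18.2% of the 11, against 3.44% and 5.77% of all genes called lower. With single arrays left out, the calls of Pfkfb3, Slc2a1 and Egln3 stayed past the test 7, 9 and 8 times of 12.

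Markers of other cells in the tissue moved in the same comparisons, and their part in the endothelial values was not tested. Over all genes, 1.6% were called higher and 2.2% lower at 5 days, and 2.12% and 3.44% at 42 days. Between the times the shares were 2.75% and 5.77%. Of 12 pericyte and smooth muscle markers, 3 were called higher at 5 days (Myh11, Kcnj8 and Higd1b, 0.36, 0.33 and 0.21) and 1 at 42 days (Myh11, 0.32), and their mean per array was 10.14 to 10.31 at 5 days, 10.15 to 10.21 at 42 days and 10.03 to 10.14 on chow. Of 9 fibroblast markers, 1 was higher at 5 days (Pi16) and 3 at 42 days (Lum, Col1a2 and Mfap5), with means of 11.22 to 11.78 at 5 days, 11.51 to 11.67 at 42 days and 10.95 to 11.46 on chow. Of 10 adipocyte markers, 2 were lower at 5 days (Retn and Cidec) and 0 passed at 42 days, with means of 9.90 to 10.29 at 5 days, 9.80 to 10.59 at 42 days and 10.33 to 11.31 on chow. With the adipocyte mean of each array as a covariate, 0 of the 35 endothelial genes passed at 5 days, 0 at 42 days and 2, Sox17 and Vwf, were lower between the times. That fit called 44 of 18193 genes at 5 days, 170 at 42 days and 1126 lower between the times. Its median over the 35 was 0.16 at 5 days and 0.12 at 42 days, beside 0.15 and 0.09 without the covariate. In that fit 32 and 28 of the genes lay above 0. Of 5 lymphatic markers 0 passed. One of 4 red cell markers (Hba-a1) and 1 of 8 macrophage markers (Adgre1) were lower at 5 days, the macrophage marker Lyz2 was higher at 42 days, and the platelet marker Gp5 was higher at 42 than at 5 days. Hba-a1 was dim, with a mean of 6.31 over all arrays. Most of these calls depend on single arrays. Of 12 fits that each left out 1 array, Myh11 stayed past the test in 3 at 5 days and 2 at 42 days, Kcnj8 and Pi16 in 2, Higd1b, Cidec and Adgre1 in 1, Hba-a1 in 3, Mfap5 in 6, Lyz2 in 7, Col1a2 and Gp5 in 8, and Retn and Lum in 9.

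**Figure D5:**
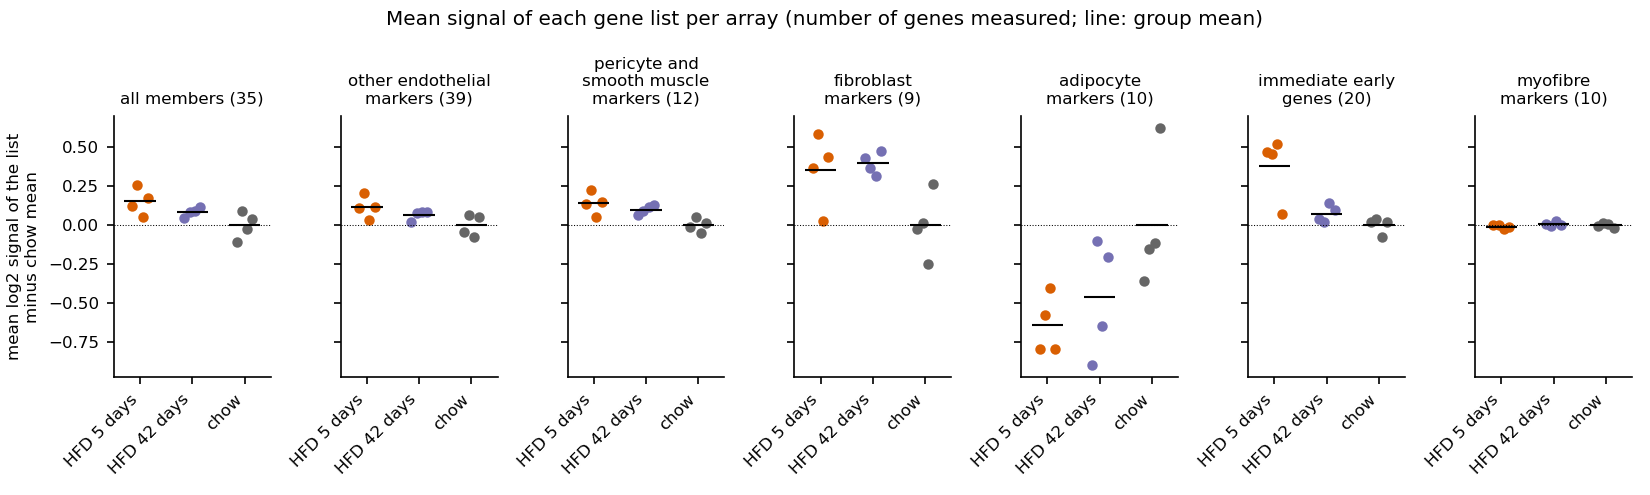
Mean log2 signal of each gene list per array, minus its mean on the 4 chow arrays. Points are arrays, lines are group means, and the number of genes measured stands above each panel. The 35 genes and the other endothelial markers shift by less than the adipocyte and fibroblast lists at both times and by less than the immediate early list at 5 days, and the myofibre markers stay near 0.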

How the data were processed

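Total RNA of skeletal muscle from 12 samples was hybridised to Affymetrix arrays. The deposited values are log2 signals per probe set, made by the authors with RMA per the submitters' processing notes. Its version is not given in the sources used here, and the log2 scale was inferred from their range. The table held 45098 probe sets, of which 61 were controls, 34945 had 1 gene symbol in the platform annotation, 932 several and 9160 none. Of the named ones 34741 matched the RefSeq gene table by Entrez identifier, and no symbol changed. This gave 18193 genes, and the brightest probe set on average stood for a gene with several. Dim genes were kept.

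Group means were fitted to all 12 arrays with limma 3.58.1 in R 4.3.3 (constant prior, 9 residual and 5.88 prior degrees of freedom). The 3 contrasts were tested two-sided, with Benjamini-Hochberg adjustment over all genes. A gene was called at an adjusted p under 0.05. Errors after ± are SE for changes and SD for signals, and folds are powers of 2. The fit was tested on simulated data. Precision is limited by the number of arrays.

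The members and the other gene lists were chosen with earlier results of these data known. Values per array are given for members past the test in any contrast, and up to 4 genes per other list, those with the smallest p past the test, are named. Alternatives were other normalizations, filters, priors and probe set rules, the replicate number as a block, covariates and leaving out each array. The 3-prime to 5-prime covariate was added after seeing the data.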

Additional observations from a re-analysis of the deposited data

Results flagged for a closer look

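Within the groups of 4 arrays, 105 sets of values of the 35 genes were examined for a single array far from the rest, and 6 were found, where chance gives about 1 in 20. On replicate 3 at 5 days, Clec14a had 7.545 against 7.79 on the nearest array of its group, and Ramp2 had 10.948 against 11.24. On replicate 4 at 42 days, Angpt2 had 7.396 against 7.12. On replicate 1 of chow, Sox7 had 8.247 against 8.93, Rgcc had 13.079 against 13.43 and Nos3 had 8.537 against 8.85. All values are log2 signals. None of these 6 genes passed the test in any of the 3 comparisons. Vwf differed between the 2 HFD groups, with a log2 change of -0.328 at 42 relative to 5 days (adjusted p = 0.0236, limma). That call was lost with the 3-prime to 5-prime covariate, and age differed between these groups too.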

How the results depend on the processing

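No call among the 35 genes changed direction under any setting, and the median changes kept their sign, with 0.11 to 0.21 at 5 days, 0.08 to 0.12 at 42 days and -0.13 to -0.00 between the times. Of 71 alternative values of the 6 calls that keep all arrays, 52 stayed past the test. Of the 72 values that leave out 1 array, 37 did. At 5 days the count of 4 higher became 1 (quantile normalization, array weights), 2 (cyclic loess), 11 (centring on array medians), 0 (a fit of the 8 arrays compared, the adipocyte covariate) and 10 (adjusted p under 0.1). The count of 1 at 42 days became 2 (mean of probe sets, trended and robust prior, adjusted p under 0.1) and 0 (the adipocyte and the 3-prime to 5-prime covariates). The count of 1 lower between the times became 8 (centring), 3 (without the 40% dimmest genes, the 8 arrays compared), 2 (array weights, trended prior, adipocyte covariate), 0 (3-prime to 5-prime covariate) and 5 (adjusted p under 0.1). The F-test count of 6 became 13 (centring, adjusted p under 0.1), 2 (adipocyte covariate) and 1 (3-prime to 5-prime covariate). Leaving out 1 array gave 0 to 6 higher at 5 days, 0 to 1 at 42 days, 0 to 3 lower between the times and 0 to 7 by the F-test, with medians of 0.09 to 0.20, 0.06 to 0.12 and -0.09 to -0.01. The 42-day value of Arnt turned to 0.11 with the mean of its probe sets.

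Over all genes, 692 were called at 5 days, against 7 with only the 8 arrays compared, 6 without replicate 2 at 5 days, 44 with the adipocyte covariate, 159 with array weights, 207 with cyclic loess, 208 with quantile normalization and 1353 with centring. Of the calls at 5 days 42.1% were higher, against 84.3% with centring, 59.6% without the dimmest genes, 50.7% with cyclic loess and 53.4% with a trended prior; between the times 32.3% were higher, against 7.45% with centring and 44.4% with cyclic loess. The cause was not tested. Arrays of the same replicate number did not deviate together as a whole: 3 of 12 pairs correlated over 0.1. Those were the pairs of replicate 1 (0.208, 0.215 and 0.221), whose arrays did deviate together. With the replicate number as a block, 6 of the 35 genes were higher at 5 days, 1 at 42 days and 1 lower between the times, and 880 genes were called at 5 days.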
